A study of Mus musculus with 160 samples.

Results

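The Meis, Pknox and Pbx genes encode partners of the Hox transcription factors. The genes described here are Meis1, Meis2, Meis3, Pknox1, Pbx2, Pbx3 and Pbx4, taken by name from a table of 23420 gene rows, and all 7 were found in it. They were followed in 160 single mouse cells on the way from induced endothelium to blood progenitors, together with their relation, cell by cell, to Hoxa9, which the cells were engineered to express.

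All cells were C57BL/6 and carried the same modification: a doxycycline-inducible Runx1-p2a-Hoxa9 cassette at the Rosa26 locus. The study's methods name embryonic stem cells, while the labels speak of ESC or iPSC without assigning cells to either. The 65 induced hemogenic endothelial cells (iHECs) were sorted as CD31+CD41lowCD45-c-kit+CD201high. They were then matured, still with doxycycline, over OP9-DL1 stroma, feeder cells that express the Notch ligand Delta-like 1. The resulting induced hematopoietic progenitor cells (iHPCs) were sorted on induction day 14 (D14, maturation day 3, 21 cells) and day 17 (D17, maturation day 6, 18 cells) as CD45+ and lineage-negative (markers that included CD3, CD4, CD8, FcεRIα, F4/80, Gr1 and Ter119), and on day 21 (D21, maturation day 10, 56 cells) as Ter119-CD45+c-kit+CD127+. No group was free of doxycycline or of the cassette, so none shows the genes without induced Runx1 and Hoxa9. Because the gate was different for iHECs, for D14 and D17, and for D21, day and gate cannot be told apart across those steps. No label names a separate culture, so each group counted as 1 sample. Cells are not replicates: no test was run, the SD is the spread between cells, and intervals cover the counting of cells only.

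Hox proteins bind short, similar DNA sites, and gain affinity and choice of site by binding together with homeodomain proteins of the TALE class, so called for extra amino acids in the loop between the first helices of the homeodomain. TALE partners come in a PBX class, here Pbx2, Pbx3 and Pbx4, and a MEIS class, here Meis1, Meis2, Meis3 and Pknox1 (also called Prep1). A MEIS class protein binds a PBX protein and helps to hold it in the nucleus, and either can join a Hox protein on DNA. Hoxa9 with Meis1 is best known from myeloid leukemia, where their joint expression is transforming, and Meis1 is also required for hematopoietic stem cells.

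The classes can be told apart in the DNA that encodes the recognition helix, the part of the homeodomain that lies in the major groove. The following 51 bases, 17 codons each, were read from the GENCODE transcript with the longest coding sequence of each gene (GRCm38, the assembly also named mm10) and are shown because they separate the genes whose levels are compared below. Capitals mark the 7 codons whose amino acid is the same within each class and different between the classes.
Meis1: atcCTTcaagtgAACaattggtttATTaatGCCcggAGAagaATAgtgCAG
Meis2: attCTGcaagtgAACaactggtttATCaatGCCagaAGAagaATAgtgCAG
Meis3: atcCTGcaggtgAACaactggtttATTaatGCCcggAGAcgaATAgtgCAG
Pknox1: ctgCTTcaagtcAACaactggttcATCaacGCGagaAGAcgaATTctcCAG
Pbx2: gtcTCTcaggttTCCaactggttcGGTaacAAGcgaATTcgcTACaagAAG
Pbx3: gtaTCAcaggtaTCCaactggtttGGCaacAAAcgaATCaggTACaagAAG
Pbx4: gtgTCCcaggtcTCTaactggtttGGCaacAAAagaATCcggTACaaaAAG

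Within a class, 37 to 47 of the 51 bases were identical between pairs of genes, and 15 to 17 of the 17 codons encoded the same amino acid. Between classes 20 to 27 bases were identical and 8 codons encoded the same amino acid. In each gene the stretch joins 2 coding exons, exons 9 and 10 in the MEIS class and exons 5 and 6 in the PBX class, so its genome span includes an intron. It spans chr11:18885621-18905708 for Meis1, chr2:115868773-115921691 for Meis2, chr2:34178301-34204788 for Pbx3 (these on the minus strand), chr7:16183848-16184068 for Meis3, chr17:31602843-31603217 for Pknox1, chr17:34594709-34594842 for Pbx2 and chr8:69866595-69870070 for Pbx4 (plus strand). Despite this likeness the genes do not share long stretches: 0 of the 50-base windows in the coding transcripts of any of the 7 genes occurred in a transcript of another, and the longest identical run between coding sequences was 28 bases, in Meis2 and Meis3.

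The genes themselves lie at chr11:18879817-19018985 (Meis1), chr2:115863064-116065839 (Meis2), chr7:16175090-16186504 (Meis3), chr17:31564734-31607693 (Pknox1), chr17:34591266-34597400 (Pbx2), chr2:34171457-34373142 (Pbx3) and chr8:69832491-69872292 (Pbx4). Annotated genes overlap Meis1 (5, of which 2 on the opposite strand), Pknox1 (3, 2 opposite), Pbx2 (1, Gpsm3, same strand) and Pbx3 (1, opposite), and none overlap Meis2, Meis3 or Pbx4. Whether the counting used strand is not given in the sources used here, so reads from the overlaps cannot be told apart.

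Values are TPM, transcript abundances corrected for length and scaled to a common total within each cell, which keep neither read counts nor depth. A gene is called present in a cell above 1 TPM. The number of genes above 1 TPM differed between groups, with a median of 4926 in iHECs (range 3309 to 7533), 8200 in D14 (3103 to 9333), 8101 in D17 (6536 to 9658) and 6695.5 in D21 (3188 to 7950), and its part in the results was not tested. The endothelial gene Cdh5 was present in 63 of 65 iHECs and 0 cells of the other groups, while Ptprc, which encodes CD45, was present in 1 iHEC, 19 of 21 D14, 17 of 18 D17 and 55 of 56 D21 cells. Other markers crossed the groups: of the endothelial list, Pecam1, which encodes CD31, was present in 17 of 21 D14, 16 of 18 D17 and 46 of 56 D21 cells and Egfl7 in 20, 18 and 36, and of the blood list Laptm5 was present in 39 of 65 iHECs. Of 8 mast cell or basophil markers, 7 were above 1 TPM in at least 1 D21 cell, led by the protease gene Cpa3 in 56 of 56, and the mean of the list ran from 1.37 to 8.82 in D21 cells on the log2(TPM + 1) scale. Stromal markers of feeder cells were near 0 (Col1a1 in 0, 0, 2 and 1 cells in order of day) except Pdgfrb, which was above 1 TPM in 0 of 65, 10 of 21, 16 of 18 and 44 of 56 cells.

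A few cells went against their label on 6 blood markers, whose mean on the log2(TPM + 1) scale lay between 7.49 and 10.03 in the rest of D14 and D17 and between 0 and 4.70 in the rest of the iHECs. In 2 D14 cells and 1 D17 cell it was 1.78 to 2.96, and in 3 iHECs it was 5.79 to 8.28. Those 6 cells, picked after the data had been seen with a limit of 5, stayed in all values below, and results that rest on them are also given without them.

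Among the MEIS class, Meis1 was the most widely present gene at 1 TPM in all 4 groups, in D17 by 15 cells against 14 for Pknox1. There Pknox1 led at limits of 10 TPM (72.2% against 55.6%) and 0 TPM (88.9% against 83.3%). In the 65 iHECs its lowest, median and highest levels were 0, 7.44 and 181 TPM, and 36 cells (55.4%, 95% interval 42.5 to 67.7) were above 1 TPM. In the 21 D14 cells the levels were 0, 12.9 and 43.7 TPM, with 19 cells present (90.5%, 69.6 to 98.8). In the 18 D17 cells they were 0, 13.6 and 63.7 TPM, with 15 present (83.3%, 58.6 to 96.4), and in the 56 D21 cells 0, 10.5 and 92.7 TPM, with 39 present (69.6%, 55.9 to 81.2). The range of each group began at 0, and those of D14, D17 and D21 lay within that of the iHECs.

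The mean of Meis1 was 3.03 ± 2.90 (SD between cells) in iHECs, 3.47 ± 1.44 in D14, 3.11 ± 1.92 in D17 and 2.94 ± 2.18 in D21 on the log2(TPM + 1) scale. Among iHECs 21 cells were listed at 0 and 32 were above 10 TPM, while 2 D14 cells were at 0 and 14 above 10 TPM. Among present cells the median was 51.8 TPM in iHECs, against 13.3, 16.7 and 16.2 TPM in D14, D17 and D21. A smaller share of iHECs had Meis1 present, with an interval apart from that of D14 only, and iHECs with Meis1 had a higher median level. This was not particular to Meis1. Between iHECs and D14 it also held for Pbx3 (median of present cells 32.9 and 4.70 TPM) and Pknox1 (19.6 and 8.71). For Pbx2 the medians were 5.38 and 1.94 TPM, but the intervals of its share overlapped. Whether genes in general did the same was not tested. The 2 D14 cells and 1 D17 cell low in blood markers all had Meis1 at 0, and without them it was present in 19 of 19 D14 cells and 15 of 17 D17 cells (88.2%).

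**Figure D1:**
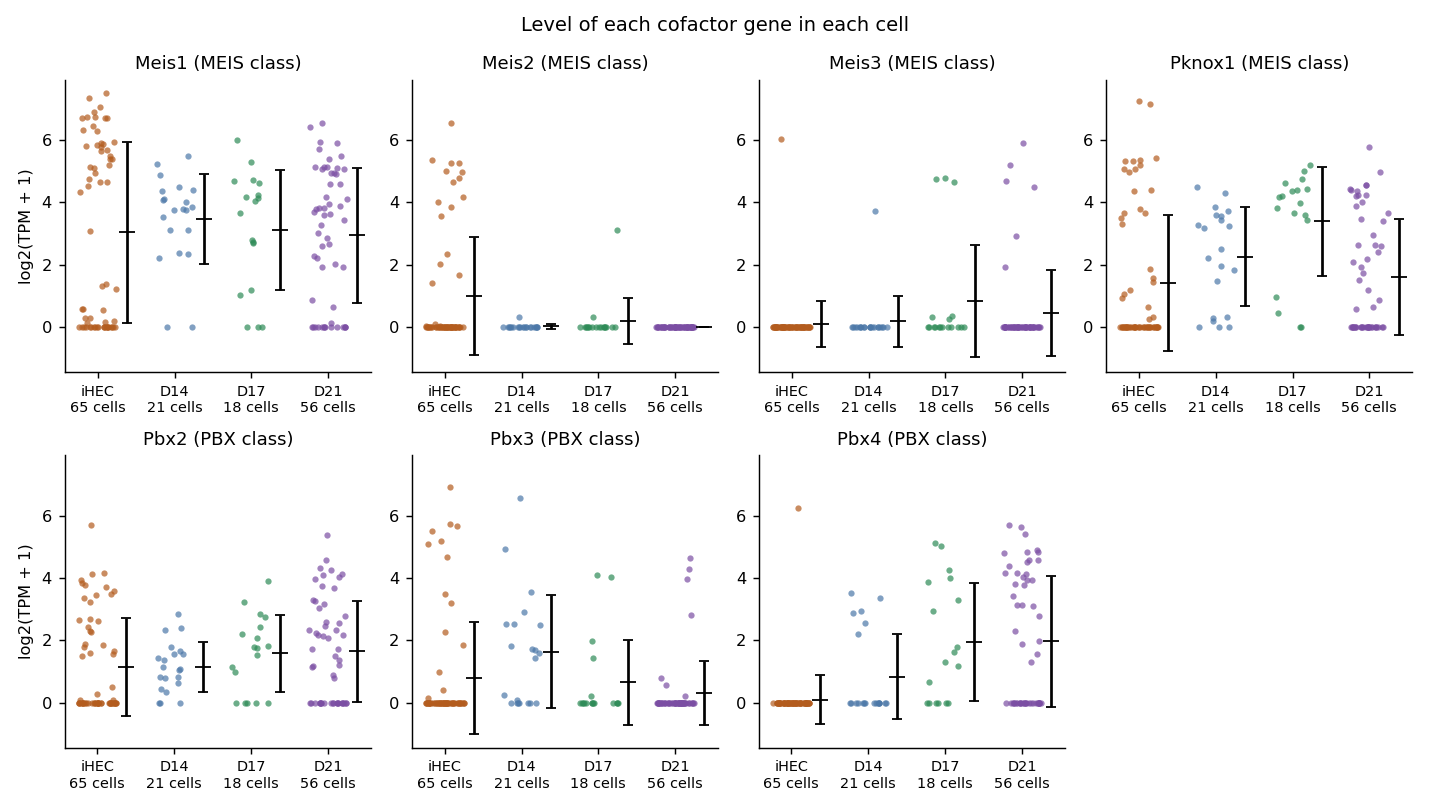
Level of each of the 7 genes in every cell as log2(TPM + 1), by group (x axis), with 1 point per cell and the mean ± SD between cells in black. Meis1 splits into cells near 0 and cells near 6 among iHECs, Meis2 is nearly confined to iHECs (16 of the 17 cells above 1 TPM), and Pbx4 has 1 cell above 1 TPM among 65 iHECs and 29 among 56 D21 cells.

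Meis2, a close relative of Meis1 that acts in limb, heart and neural development, was found almost only in the endothelial group. Its levels in iHECs were 0 (lowest and median) and 93.1 TPM (highest), and 16 of 65 cells were above 1 TPM (24.6%, 14.8 to 36.9), with a median of 20.5 TPM among those. In D14 the highest of 21 cells had 0.244 TPM, in D17 the single present cell had 7.67 TPM, and in D21 all 56 cells were listed at 0. The counts of 0 allow shares of up to 14.3% in D14 and 5.36% in D21, by a limit of 3 cells. By the exact intervals used for the other shares, the upper ends were 16.11% in D14 and 6.375% in D21. The interval in D17 was 0.141% to 27.3%. The intervals of D14 and D17 overlapped that of iHECs, and that of D21 lay below it. Its mean went from 1.0 ± 1.90 in iHECs to 0.02 ± 0.07 in D14, a difference of -0.99 where the middle of all genes moved by 0.93. Of the 16 iHECs with Meis2, 7 also had Meis1 present.

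Meis3, the remaining Meis gene, was rare throughout. It was present in 1 of 65 iHECs at 64.4 TPM, in 1 of 21 D14 cells at 12.1 TPM, in 3 of 18 D17 cells at 24.1, 25.9 and 26.5 TPM, and in 6 of 56 D21 cells at 2.76 to 58.4 TPM. The D14 cell and 1 of the D17 cells were among those low in blood markers, which leaves 0 of 19 and 2 of 17 cells. The intervals of the 4 shares overlapped, the widest being 3.58% to 41.4% in D17.

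Pknox1 encodes Prep1, a MEIS class protein that pairs with PBX proteins and has a role in early T cell development. Its lowest, median and highest levels were 0, 0 and 153 TPM in iHECs, 0, 4.68 and 21.5 TPM in D14, 0, 15.9 and 35.6 TPM in D17 and 0, 0.521 and 54.1 TPM in D21. It was present in 22 of 65 (33.8%, 22.6 to 46.6), 15 of 21 (71.4%, 47.8 to 88.7), 14 of 18 (77.8%, 52.4 to 93.6) and 26 of 56 cells (46.4%, 32.99 to 60.3). D17 stood highest by median and by mean (3.39 ± 1.74, against 1.42 ± 2.19, 2.26 ± 1.58 and 1.61 ± 1.86 in iHECs, D14 and D21), yet each group reached down to 0 TPM. All 14 D17 cells with Pknox1 were at 9.73 TPM or more.

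Of the PBX class, Pbx2, which is broadly expressed across tissues, was present at low levels in every group. The median level was 0 TPM in iHECs, 1.11 in D14, 2.44 in D17 and 1.71 in D21, and the highest was 51.1, 6.18, 14.1 and 40.97 TPM. It was present in 25 of 65 (38.5%, 26.7 to 51.4), 12 of 21 (57.1%, 34.02 to 78.2), 12 of 18 (66.7%, 40.99 to 86.7) and 32 of 56 cells (57.1%, 43.2 to 70.3), shares whose intervals overlapped in every pair of groups. Its means ran from 1.14 ± 1.57 in iHECs to 1.65 ± 1.63 in D21. Many of these values lay close to the limit: above 10 TPM there were 9 iHECs, 0 D14, 1 D17 and 10 D21 cells.

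Pbx3, often expressed with Meis1 and Hoxa9 in leukemia, was most widely present in D14 at the limit of 1 TPM. It was present in 11 of 65 iHECs (16.9%, 8.76 to 28.3), 12 of 21 D14 cells (57.1%, 34.02 to 78.2), 4 of 18 D17 cells (22.2%, 6.41 to 47.6) and 4 of 56 D21 cells (7.14%, 1.98 to 17.3). The median was 2.04 TPM in D14 and 0 in the other groups, but the highest cells of all groups overlapped, at 120 TPM in iHECs, 94.2 in D14, 16.04 in D17 and 23.9 in D21. Its means were 0.79 ± 1.81, 1.63 ± 1.82, 0.65 ± 1.36 and 0.31 ± 1.04. The 4 present cells of D21 had 6.10, 14.7, 18.6 and 23.9 TPM. The intervals of the share in D14 and D17 overlapped. With a limit of 10 TPM the shares were 12.3% in iHECs, 14.3% in D14, 11.1% in D17 and 5.36% in D21, so the higher share in D14 rested on levels of 1 to 10 TPM.

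Pbx4, a small member of the family best known from the testis, was nearly absent from iHECs and more widely present later. In iHECs 64 of 65 cells were listed at 0 and the remaining cell had 75.7 TPM (1.54%, 0.0389 to 8.28). Among D14 cells 6 of 21 were present (28.6%, 11.3 to 52.2), at 3.64 to 10.4 TPM. In D17 it was present in 11 of 18 (61.1%, 35.7 to 82.7) with a median of 8.81 TPM in those cells, and in D21 in 29 of 56 (51.8%, 38.03 to 65.3) with a median of 15.2 TPM. Means were 0.10 ± 0.78, 0.83 ± 1.37, 1.95 ± 1.90 and 1.98 ± 2.102. Both D14 cells low in blood markers had Pbx4 (6.65 and 9.34 TPM), and without them it was present in 4 of 19 (21.1%, 6.05 to 45.6).

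**Figure D2:**
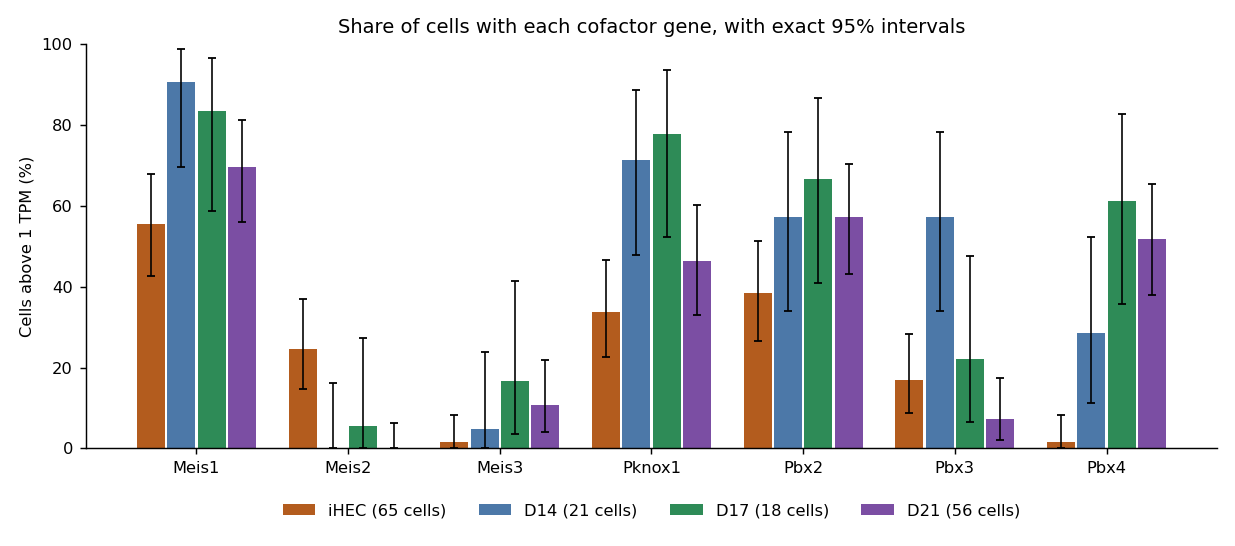
Share of cells above 1 TPM (y axis, %) for each gene and group, with exact 95% intervals as bars. At this limit Meis1 is highest in every group (55.4% to 90.5%), Pbx3 is highest in D14 (57.1%), and Pbx4 goes from 1.54% in iHECs to 61.1% in D17 and 51.8% in D21.

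The order of the genes by share shows which neighbours could be told apart. In iHECs it was Meis1, Pbx2, Pknox1, Meis2, Pbx3 and then Meis3 and Pbx4 in 1 cell each, and the interval of Pbx3 began above the end of theirs. In D14 and D17 the intervals of all neighbours in the order overlapped, with Meis1 and Pknox1 leading. In D21 Meis1, Pbx2, Pbx4 and Pknox1 formed a common set with overlapping intervals, and the lowest of them, Pknox1, was apart from Meis3, Pbx3 and Meis2. Across all 160 cells Meis1 was present in 109, Pbx2 in 81, Pknox1 in 77, Pbx4 in 47, Pbx3 in 31, Meis2 in 17 and Meis3 in 11. Meis2 and Meis3 were thus under the limit of more than 30 cells that defined the 9674 genes used for comparison.

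Differences between consecutive groups were taken as the later minus the earlier mean of log2(TPM + 1), and set beside the same in those 9674 genes, here called all genes. Meis2 and Meis3 are not among them. Over every gene row without that filter the median difference was 0 in every step. From iHECs to D14 none of the 7 genes moved by 1 or more (48% of all genes did) or by -1 or less (11.5%). The 7 differences ran from -0.99 for Meis2 to 0.84 for Pbx3 and Pknox1, with a median of 0.44, while the median of all genes was 0.93. Relative to that shift Meis1 stood at -0.49, Pbx2 at -0.92, Meis3 at -0.84 and Meis2 at -1.91. For Meis2 and Meis3, which did not pass the filter, that shift is not a like background. Small values were not stable in sign: Meis1 (0.44) was -0.23 with a pseudocount of 10 TPM, 1.36 with 0.1 TPM and 0.91 without the 6 cells, and among cells with 5000 to 8000 genes above 1 TPM Pbx3 (0.84) was -0.27, Pbx4 (0.74) was -0.20 and Meis3 (0.08) was -0.19.

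By share of cells the intervals of iHECs and D14 lay apart for 4 of the 7 genes, Meis1, Pbx3, Pbx4 and Pknox1, each higher in D14. This was so for 45.3% of the 9674 genes used for comparison, and for 3.15% in the other direction. Meis2 and Meis3 are not among those genes, so the like count is 4 of 5. With so few genes and so common a change, no excess over the background can be read from it. Without the 6 cells that went against their label the interval of Pbx4 in D14 overlapped that in iHECs. The intervals of Pbx4 in iHECs and D21 (1 of 65 and 29 of 56 cells) lay apart with and without them. The share of all genes apart between iHECs and D21 was not computed, so this has no background beside it.

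From D14 to D17, Pbx4 (1.12) and Pknox1 (1.13) moved by 1 or more, as 15.5% of all genes did. Both differences were smaller than the spread between cells, at 0.67 and 0.68 of the mean SD. None moved by -1 or less (3.89% of all genes), though Pbx3 came close at -0.98, or -1.25 relative to the median of all genes (0.28), and reached -1.20 without the 6 cells. The shares of cells overlapped between D14 and D17 for all 7 genes, against 1.24% of all genes apart and higher and 0.507% apart and lower. Among cells with 5000 to 8000 genes, 8 in D14 and 7 in D17, Pbx4 differed by 2.07 and Pknox1 by 0.41.

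From D17 to D21, Pknox1 moved by -1.78 and was the only one of the 7 past -1, as 38.5% of all genes were. It was also lower than the median of all genes (-0.74) by 1.05, and its difference was 0.99 of the mean SD between cells. No gene of the 7 moved by 1 or more (2.33% of all genes), and the remaining 6 stayed between -0.39 and 0.07. Pbx2 (0.07) and Pbx4 (0.03), with values of 0.80 and 0.77 relative to the median, were nearly level while most genes were lower, but both turned negative with a pseudocount of 0.1 TPM (-0.23 and -0.31). No gene of the 7 had intervals of its share apart, against 0.455% of all genes apart and higher and 11.1% apart and lower.

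The makeup of each class changed along with these levels. Of the summed TPM of the 4 MEIS class genes, Meis1 made up 65.7% in iHECs, 66.9% in D14, 43.4% in D17 and 66.1% in D21, and Pknox1 made up 20.7%, 30.4%, 43.2% and 23.7%. Of the summed TPM of Pbx2, Pbx3 and Pbx4, Pbx3 made up 55.7%, 69.1%, 15.8% and 7.56%, while Pbx4 made up 10.98%, 17.1%, 59.3% and 59.7%. A few cells carried some of these shares. Without the cell of highest Pbx3 its share in D14 was 49.2%, and without the only iHEC with Pbx4 the share of Pbx4 in iHECs was 0%. In D21 the share of Pbx4 was 58.4% without its highest cell.

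**Figure D3:**
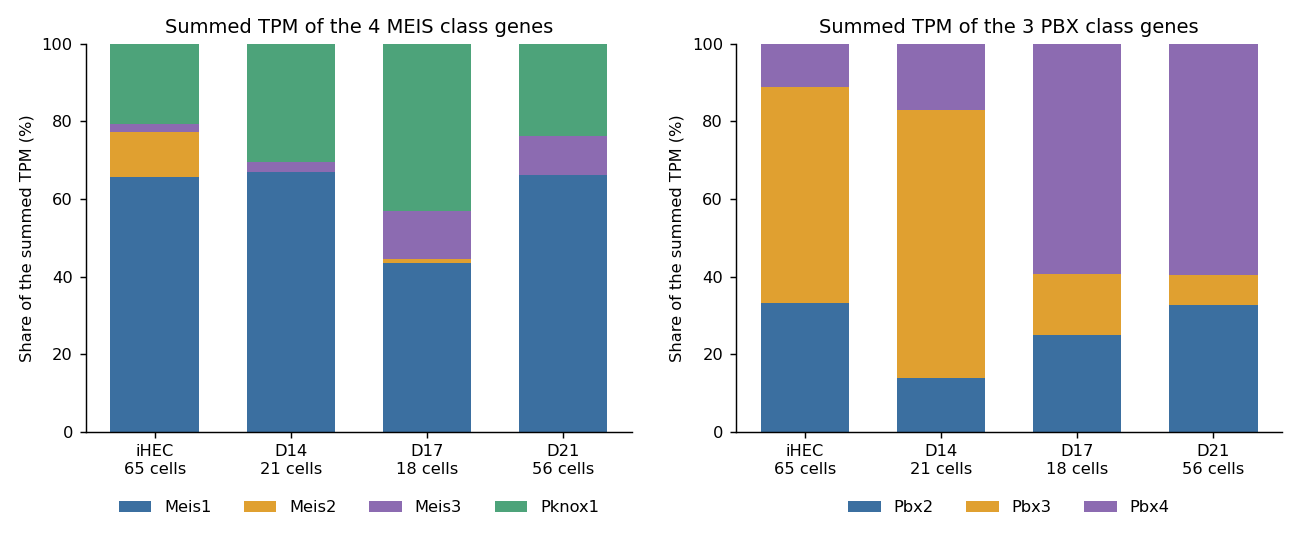
Share (y axis, %) of each gene in the TPM summed over all cells of a group, for the 4 MEIS class genes (left) and Pbx2, Pbx3 and Pbx4 (right). Meis1 makes up 43.4% to 66.9% on the left, and on the right Pbx3 gives way to Pbx4 between D14 (69.1% and 17.1%) and D17 (15.8% and 59.3%).

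A complex of Hoxa9 with a partner of each class needs all of them in the same cell. At least 1 of the 4 MEIS class genes was present in 52 of 65 iHECs (80%, 68.2 to 88.9), 20 of 21 D14, 17 of 18 D17 and 48 of 56 D21 cells (85.7%, 73.8 to 93.6). At least 1 of Pbx2, Pbx3 and Pbx4 was present in 30 of 65 iHECs (46.2%, 33.7 to 58.97), 20 of 21 D14, 18 of 18 D17 and 43 of 56 D21 cells (76.8%, 63.6 to 87.0). Genes of both sets and Hoxa9 were present together in 26 iHECs (40%, 28.04 to 52.9), 18 D14 cells (85.7%, 63.7 to 97.0), 16 D17 cells (88.9%, 65.3 to 98.6) and 39 D21 cells (69.6%, 55.9 to 81.2). The interval of iHECs lay apart from those of the other 3 groups, as it did for the PBX set but not for the MEIS set. No background was computed for such sets of genes. Of all single genes, 45.3% were higher in D14 than in iHECs with intervals apart, so a lower share in iHECs is not particular to these sets. In all, 24 iHECs had a MEIS class gene and none of Pbx2, Pbx3 and Pbx4, against 2 iHECs with the reverse. With a limit of 10 TPM the joint share was 18.5% in iHECs, 9.52% in D14, 38.9% in D17 and 39.3% in D21, so the high value in D14 rested on levels of 1 to 10 TPM.

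**Figure D4:**
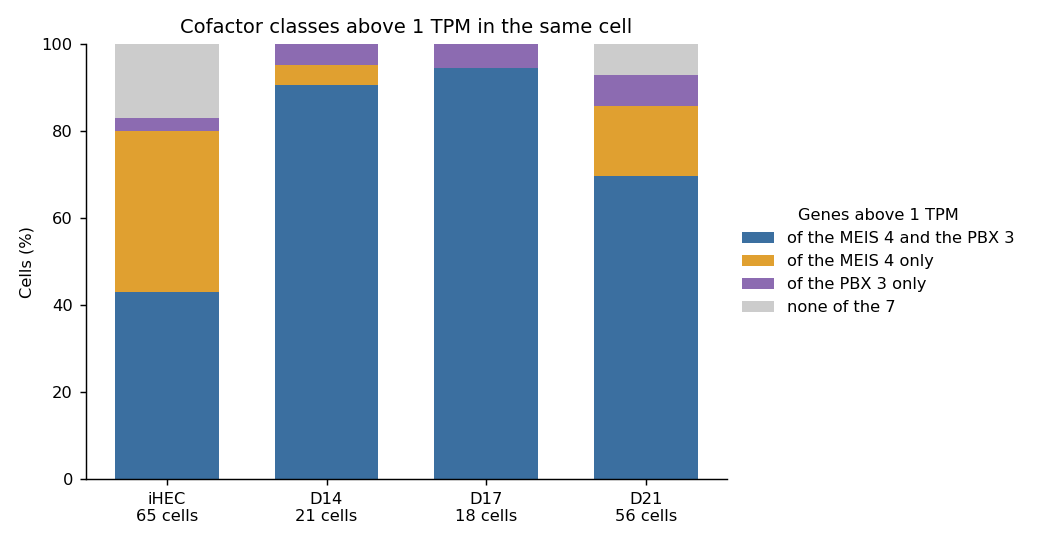
Share of cells (y axis, %) by group in which genes of the MEIS 4 (Meis1, Meis2, Meis3, Pknox1) and the PBX 3 (Pbx2, Pbx3, Pbx4) were above 1 TPM in the same cell. Cells with genes of both sets make up 43.1% of iHECs, 90.5% of D14, 94.4% of D17 and 69.6% of D21 cells, and cells with none of the 7 make up 16.9% of iHECs and 7.14% of D21 cells.

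A cell had 0 to 5 of the 7 genes present, with a median of 2 in iHECs and D21 and 3 in D14 and D17. No cell had 6 or 7. This number went with the number of genes above 1 TPM in the same cell (Pearson r = 0.61 over 65 iHECs, 0.33 over 21 D14, 0.67 over 18 D17 and 0.49 over 56 D21 cells).

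Hoxa9 is the sum of the cassette and the endogenous gene in these values, which the table does not separate. Cells with Hoxa9 present numbered 55 of 65 in iHECs, 20 of 21 in D14, 17 of 18 in D17 and 56 of 56 in D21, with median levels of 72.8, 150, 288 and 192 TPM. Runx1, the other induced factor, was present in 59, 20, 18 and 56 cells. Of cells with Hoxa9, Meis1 was present in 33 of 55 iHECs (60%), 18 of 20 D14 (90%), 15 of 17 D17 (88.2%) and 39 of 56 D21 cells (69.6%). Of the 10 iHECs with Hoxa9 at 1 TPM or less, 3 had Meis1.

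In iHECs and D21, the relation of the 7 genes to Hoxa9 stayed inside the range of all genes. Over 65 iHECs Pearson's r with Hoxa9 ran from 0.01 (Pbx4) to 0.24 (Pknox1), inside the 5th to 95th percentile of all genes (-0.17 to 0.29). Over 56 D21 cells it ran from 0.03 (Pbx2) to 0.20 (Pbx4), again inside that range (-0.23 to 0.52). Meis1 had an r of 0.10 in iHECs, 0.00 in D14, 0.35 in D17 and 0.15 in D21. These r are descriptions over cells that share a library type and a depth that the table does not give, and Hoxa9 itself went with the number of genes above 1 TPM (r = 0.37 in iHECs, 0.59 in D14 and 0.65 in D21, but -0.26 in D17).

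The values for D14 and D17 rest on 21 and 18 cells and some on 1 or 2 of them. Pknox1 had the highest r in D14, 0.56 (all genes, -0.37 to 0.62), and 0.54 once the number of genes was held constant, but 0.35 without the 2 cells farthest in Hoxa9. Pbx3 had the lowest r in D14, -0.39, just beyond the 5th percentile of all genes (-0.37). It was -0.20 without the 2 cells farthest in Hoxa9 and -0.34 without the 2 D14 cells low in blood markers. In D17 Pbx3 had an r of -0.51 and Meis3 of -0.64, beyond the 5th percentile of all genes (-0.50), and these became 0.11 and 0.11 without the 2 cells farthest in Hoxa9. One of those was the D17 cell low in blood markers, at 0.422 TPM of Hoxa9. Without it Pbx3 was at 0.15, Pknox1 went from 0.36 to 0.12 and Meis1 from 0.35 to -0.02.

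**Figure D5:**
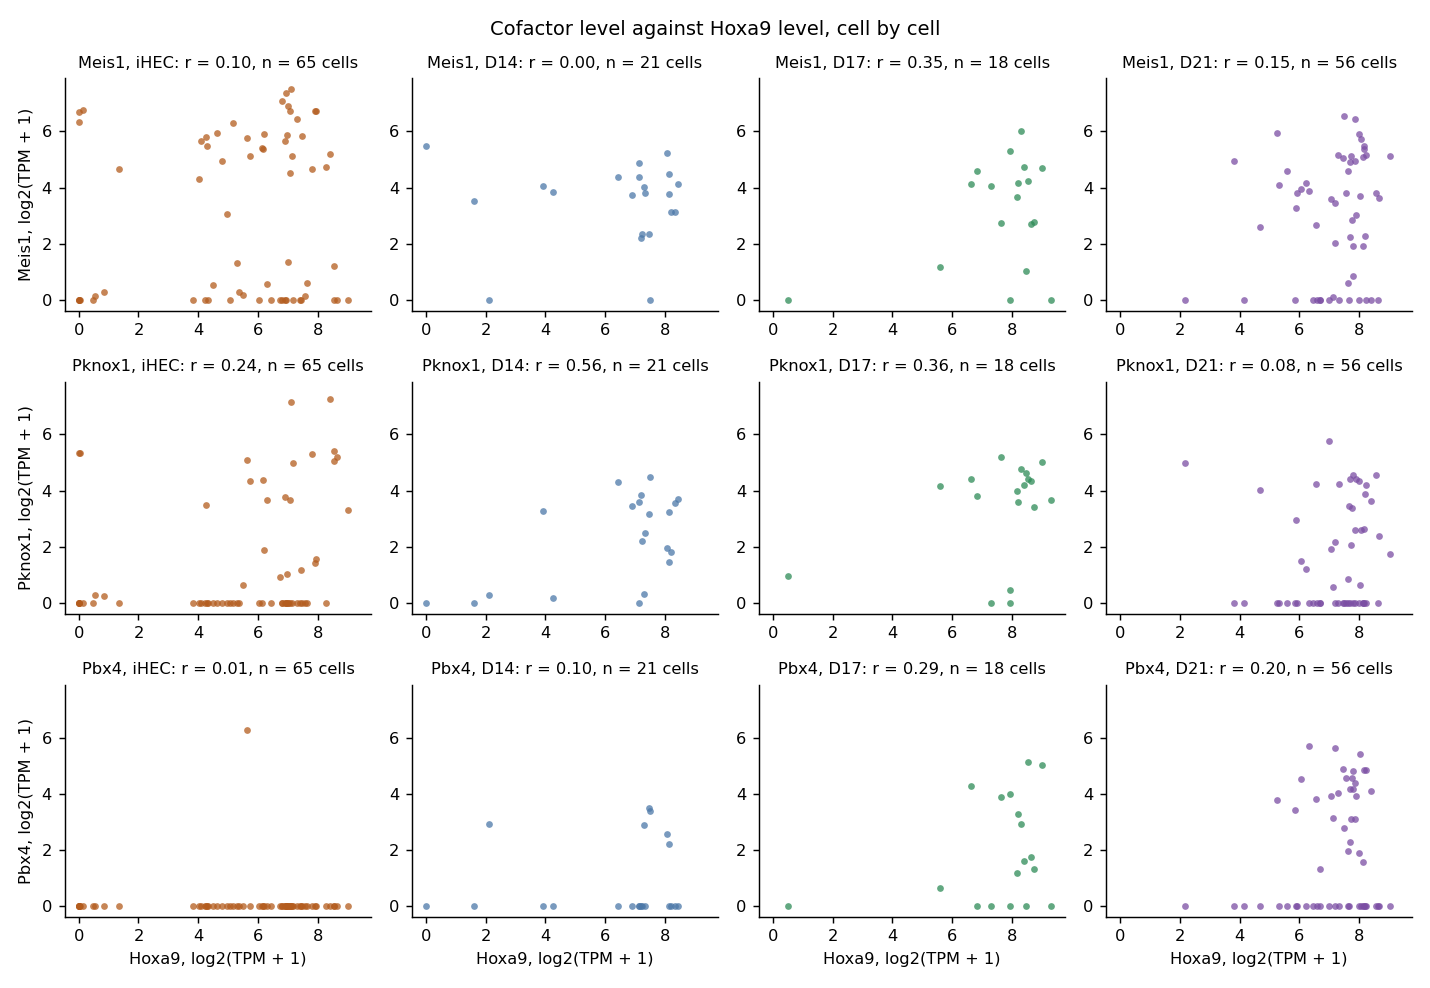
Level of Meis1, Pknox1 and Pbx4 (y axes) against that of Hoxa9 (x axis) in each cell, both as log2(TPM + 1), with a panel for each gene and group and Pearson's r above it. Points spread over the height of the panels at high Hoxa9, and the D14 and D17 panels hold a few cells of low Hoxa9 that set part of r (0.56 for Pknox1 in D14, 0.35 for Meis1 in D17).

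Between pairs of the 7 genes r took both signs, with some of the widest values resting on 1 cell. Over the 21 pairs r ran from -0.13 to 0.34 in iHECs (median 0.03), from -0.55 to 0.49 in D14 (median -0.11) and from -0.50 to 0.62 in D17 (median -0.11), and over 15 pairs in D21 from -0.25 to 0.19 (median -0.00). The -0.55 in D14 was Meis1 with Meis3, which was present in 1 D14 cell. The 0.49 was Meis2 with Pbx2, and Meis2 was present in 0 D14 cells, with a highest level of 0.244 TPM. The 0.34 in iHECs was Pbx3 with Pbx4, which was present in 1 iHEC. The largest in D17 was that of Meis1 with Pbx4, 0.62 (0.58 without the cell low in blood markers), above the 95th percentile of Meis1 with all genes (0.51). As it was picked as the highest of 21 pairs, it cannot be weighed against a percentile for a gene not so picked. All 11 D17 cells with Pbx4 also had Meis1, and 4 more had Meis1 alone, but Meis1 was present in 15 of the 18 D17 cells. The same pair had an r of -0.48 in D14, which was -0.07 without the 2 cells low in blood markers, 0.12 in iHECs and 0.11 in D21. In D21, 21 cells had both, 18 Meis1 alone and 8 Pbx4 alone.

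In D17, levels were set beside T lymphoid markers, a list of 8 genes whose mean ran from 0 to 2.73 in that group. Meis1 had an r of 0.65 with it and Pbx4 0.54, while Pbx3 had -0.61, against a 5th to 95th percentile of -0.46 to 0.54 over all genes (18 cells). Without the cell low in blood markers the values were 0.61, 0.50 and -0.59. Without the 2 cells farthest in the list they were 0.53, 0.48 and -0.77. The values of Meis1 and Pbx4 then lay inside the range of all genes, which was taken over all 18 cells and not again without those 2. The neutrophil or monocyte list in D17 gave -0.39 for Meis1 and 0.29 for Pbx3, which were -0.51 and 0.52 without the cell low in blood markers and 0.57 and -0.24 without the 2 cells farthest in that list. In D21 the T lymphoid list had a mean of 2.31 ± 1.76, against 2.06 ± 0.83 in D17. Its genes did not move together, with Cd3g at 3.38 and Lck at -1.84 from D17 to D21. In D21 r with this list lay between -0.16 and 0.02 for the 6 genes present. There the mast cell or basophil list gave -0.06 to 0.22 and Gata2, a factor of mast cells and progenitors, -0.00 to 0.15. In iHECs the endothelial list gave -0.19 to 0.25, the blood list -0.08 to 0.23, the stromal list -0.14 to 0.17 and the megakaryocyte list -0.10 to 0.36. The value of 0.36 was that of Pbx4, which was present in 1 iHEC, and the next was Meis1 at 0.27. In D14 the neutrophil or monocyte list gave -0.57 to 0.59, the highest being Meis1, which was at -0.16 without the 2 cells low in blood markers. The part of cell type in any of these levels was not tested beyond these values.

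The 3 genes most alike to each member, by Spearman's rho over all 160 cells, were few and mostly weak. Pbx4 was most like Selplg, a ligand of selectins (0.57), Psmb8, an immunoproteasome subunit (0.57), and Nmral1 (0.56), but after removal of group means these had r of 0.13, 0.08 and 0.23. Pknox1 was most like Mis12, a kinetochore gene (0.49), Rptor of the mTORC1 complex (0.42) and Esco2, a cohesin acetyltransferase (0.41), and within groups r was 0.45, 0.32 and 0.30. Pbx3 was most like Gclm (0.41), Ccl3 (0.39) and the macrophage gene Cd68 (0.38), with 0.20, 0.20 and 0.26 within groups. For Meis1 rho was at most 0.35 (Gm16897) and for Pbx2 at most 0.37 (Tyk2).

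Other genes of the pathway were read from fixed lists. Of 10 further TALE genes, Tgif1 and Tgif2, which act as repressors in TGF-beta signaling, moved by 3.42 and 1.21 from iHECs to D14 and by -1.27 and -1.89 from D17 to D21, and the median of the list was 0.06 and 0.00 in these steps. The remaining 8 (Mkx, Pknox2 and 6 Irx genes) were present in at most 6 cells of any group. Pbxip1, which encodes a protein that binds PBX proteins, was present in 23 of 65, 8 of 21, 11 of 18 and 25 of 56 cells and moved by 1.41 from D14 to D17.

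Of the other Hox genes, those of the Hoxa and Hoxb clusters were read. Of 10 other Hoxa genes 9 were present in some iHEC, the most frequent in 12 of 65 cells, none in any D14 or D21 cell, and 1 in D17, in 2 of 18 cells. Of 10 Hoxb genes, 5 moved by -1 or less from iHECs to D14, as 11.5% of all genes did, led by Hoxb5 at -4.38 (46 of 65 iHECs, 0 of 21 D14 cells). At least 1 Hoxb gene was present in 61 of 65 iHECs, 3 of 21 D14 cells and 3 of 18 D17 cells, and none in any of the 56 D21 cells.

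Of 4 chromatin regulators that act upstream of Hoxa9 and Meis1 in leukemia, Men1, the gene of menin, moved by 1.86 from iHECs to D14 and by -2.56 from D17 to D21, and Psip1 by 1.02 in the first of these. Kmt2a, which the table lists under an older name, was present in 19 of 65, 4 of 21, 8 of 18 and 18 of 56 cells, and neither it nor Dot1l moved by 1 in any step. The list had a median of 0.67, 0.66 and -0.83 in the 3 steps, where all genes had 0.93, 0.28 and -0.74.

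Of 9 genes described as targets of Meis1 or Hoxa9, 4 moved by 1 or more (48% of all genes did) and 2 by -1 or less (11.5%) from iHECs to D14. Those higher were Myb, a factor of blood progenitors (5.004), the receptor gene Flt3 (4.38), the cell cycle kinase gene Cdk6 (3.82) and Sox4 (1.10), and those lower were Epas1 (-3.23) and Trib2 (-1.59). The median of the list was 0.11, against 0.93 for all genes. From D14 to D17 Sox4 (1.87), Myb (1.56), Sytl1 (1.47) and Cdk6 (1.21) moved by 1 or more (15.5% of all genes) and none by -1 or less (3.89%). From D17 to D21 Sytl1 moved by 1.56 (2.33% of all genes were at 1 or more), and Flt3 (-2.02), Sox4 (-1.94) and Cdk6 (-1.53) by -1 or less (38.5%). Sytl1, a target of Meis1 in leukemia cells, was present in 1 of 65 iHECs, 1 of 21 D14, 7 of 18 D17 and 35 of 56 D21 cells. Meis1 was present in 55.4%, 90.5%, 83.3% and 69.6% of cells in the same order of groups. A relation between these 2 genes was not tested.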

How the data were processed

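According to the labels and the methods, cDNA of each sorted cell was amplified with the Discover-sc WTA Kit V2, reads were aligned to mm10 with HISAT2 (2.1.0 in the submitters' processing notes) and TPM was estimated with StringTie (1.3.4). The TPM values deposited by the authors stood in 1 table of 160 cells, summing to 988686 to 999108 per cell. Depth is unknown and no interval for a level can be had from it.

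From these, log2(TPM + 1) means, SDs between cells, shares above 1 TPM with exact Clopper-Pearson 95% intervals, and Pearson's r were computed with Python 3.11.15, pandas 2.3.3, NumPy 2.4.6 and SciPy 1.17.1, and plots drawn with Matplotlib 3.10.9. Where no cell was above 1 TPM, a limit of 3 cells was given beside the exact interval. As background served 9674 genes present (above 1 TPM) in over 30 cells. No cell was left out, no column was unused, and no cell's values were identical to another's. The code for differences and correlations was tested on simulated data.

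The 7 genes and the gene lists were chosen with earlier results of these data known. Named genes were the members, Hoxa9, Runx1, at most 4 genes per list and step by size of difference, and the 3 most similar genes per member. The Hox genes with their counts, and markers, were named to check lists. One gene of the lists is not reported here. Sequences come from GENCODE vM21 (GRCm38). Promoters of 5 of the 7 genes were in the RefSeq table; TGACAG occurred in 0 of them (19.2% of all promoters, both strands) and TGATTNAT in 0 (3.22%).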

Additional observations from a re-analysis of the deposited data

How the results depend on the processing

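With 1 sample per group, alternatives can only show how values move. No paired analysis was possible because each group was 1 sample and no test was made. Of the 21 differences of the 7 genes between consecutive groups, each moved by less than 1 SD between cells under each of 6 alternatives (pseudocounts of 0.1 and 10 TPM, median-of-ratios scaling, cells with 4000 or more genes, cells with 5000 to 8000 genes, and leaving out the 6 cells that went against their label, an alternative chosen after seeing the data), and none of the 3 past the fold changed sign. Each of the 21 differences was itself smaller than the SD between cells, so that limit is wide. From iHECs to D14 the alternatives turned the sign of Meis1, Meis3, Pbx2, Pbx3 (-0.27 to 2.04) and Pbx4. From D14 to D17 they turned that of Meis2 and Pbx2 (-0.45 to 0.52). From D17 to D21 they turned that of Meis3, Pbx2 and Pbx4, and Meis2 reached 0. The counts of genes past the fold moved too, but the share of all genes past it was not computed under any alternative. With a pseudocount of 0.1 TPM the median difference of all genes from iHECs to D14 was itself 1.83, so most passed 1. The counts that follow thus have no background beside them, and no excess can be read from them. From iHECs to D14, 4 genes (Meis1, Pbx3, Pbx4 and Pknox1) were higher by 1 or more and 1 (Meis2) was lower by 1 or more with a pseudocount of 0.1 TPM, and 1 (Meis2) was so lower among cells with 4000 or more genes, among cells with 5000 to 8000 genes and without the 6 cells, in place of 0. From D14 to D17, 0 were so higher with a pseudocount of 10 TPM and 1 among cells with 5000 to 8000 genes, in place of 2, and 1 (Pbx3) was so lower with a pseudocount of 0.1 TPM or without the 6 cells. From D17 to D21 the difference of Pknox1 was short of the fold, leaving 0, with a pseudocount of 10 TPM (-0.68) and among cells with 5000 to 8000 genes (-0.88). Median-of-ratios scaling moved no count.

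A limit of 10 TPM lowered many shares: Meis1 to 66.7%, 55.6% and 50% in D14, D17 and D21, Meis2 to 0% in D17, Pbx2 to 13.8%, 0%, 5.56% and 17.9% in the 4 groups, Pbx3 to 14.3% in D14, Pbx4 to 4.76%, 27.8% and 33.9% in D14, D17 and D21, Pknox1 to 28.6% and 25% in D14 and D21, and the joint presence of both classes and Hoxa9 to 18.5%, 9.52%, 38.9% and 39.3%. A limit of 0 TPM raised Pbx2 in D14 to 85.7%. Without the 6 cells Meis1 was at 100% and Meis3 at 0% in D14. Restricting to cells with 4000 or more genes kept all 28 shares of single genes within their intervals.

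The r with Hoxa9 moved by over 0.2 in D14 and D17 only, among genes present in 3 or more cells of a group. In D14, with the number of genes held constant, it was 0.35 for Meis1, -0.19 for Pbx3 and -0.16 for Pbx4, without the 2 cells farthest in Hoxa9 it was 0.33 for Meis1 and 0.35 for Pknox1, Spearman's rho was 0.36 for Pknox1, and without the 6 cells r was -0.29 for Meis1. In D17, without the 2 farthest cells, r was -0.29 for Meis1, 0.11 for Meis3, 0.11 for Pbx3 and 0.023 for Pbx4, rho was 0.11 for Meis1, -0.33 for Meis3 and -0.16 for Pbx3, Pknox1 was at 0.62 with the number of genes held constant, and without the 6 cells r was -0.015 for Meis1, -0.39 for Meis3, 0.15 for Pbx3 and 0.12 for Pknox1. The cause of these movements was not tested beyond the cells left out. Depth is unknown, so a gene at 0 TPM in a cell may be undetected rather than absent.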
